A study of Mus musculus with 12 samples.

Results

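The open chromatin of Sox9 High cells was compared with that of Sox9 Negative cells, the populations at the top and the bottom of a reporter range in mouse intestinal epithelium. Peaks from the deposited lists of these populations were joined wherever they overlapped by 1 bp or touched, which gave 70514 regions, and each region was classed as held by both lists, by High only or by Negative only. The comparison rests on 6 of the 12 libraries of the series, 3 from Sox9 High and 3 from Sox9 Negative. All came from intestinal epithelial cells of C57Bl/6 mice with a Sox9EGFP reporter, sorted by its signal, so both groups carry the same transgene and differ in how much of it they show. The labels give 12000 cells per sorted population, no age and no treatment, and leave unsaid if the 3 libraries of a group stem from different mice. Accessible DNA was tagged with Tn5 transposase by Omni-ATAC-seq, and the 3 libraries of each population are represented by 1 consensus list on mm9. No value below therefore has a replicate error, no test between populations was possible, and read depth is unknown. The 95% intervals are exact binomial ones, which cover counting error only and take regions as independent.

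Sox9 is a transcription factor of the intestinal crypt. The reporter grades the epithelium by lineage: the brightest cells are enriched for enteroendocrine and related secretory cells, which release hormones and other products from granules, and the cells without reporter are mostly differentiated absorptive cells, which take up nutrients across a brush border. Both kinds arise from the same crypt stem cells, so they may share many promoters and epithelial enhancers and differ in enhancers of their own programmes. No region here was assigned to a promoter, an enhancer or a programme. An ATAC peak marks a promoter, an enhancer or another stretch that Tn5 could reach, and its absence from a list says that no peak was called there, not that the DNA was closed. The marker genes of these cell types were not examined, because an annotation of the mm9 build was not used here. The populations are therefore called by their reporter level, and regions are given by position.

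The larger share of regions was held by 1 list alone. Both lists held 28725 regions, or 40.7% of the 70514 (95% interval 40.4 to 41.1%). High alone held 25445 regions, 36.1% of the total (35.7 to 36.4%), and Negative alone held 16344, 23.2% (22.9 to 23.5%), so that 59.3% of regions belonged to a single list. The classes differed in width. Regions of both lists had a median width of 622 bp, with quartiles of 428 and 875 bp. High only regions had a median of 280 bp (quartiles 191 and 410 bp) and Negative only regions 261 bp (183 and 384 bp). A region of both spans the peaks of 2 lists, but the peaks themselves showed the same contrast. High peaks that overlapped a Negative peak had a median of 549 bp and those that did not 280 bp, and the corresponding Negative peaks had medians of 511 and 261 bp. Because shared regions are wide, they took up 59.9% of the bases, against 24.99% for High only and 15.1% for Negative only regions.

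High held 1.56 High only regions for each Negative only region (95% interval 1.53 to 1.59), while its list was 1.20 times as long, at 54395 peaks against 45461. Since 28131 of the 28725 shared regions held 1 peak of each list, the number of regions a list has alone is close to its length minus the shared regions, and the surplus restates the difference in length. Lists of equal length give a ratio near 1 by construction, whatever their positions: 1.01 with the High list reduced to its 45461 widest peaks (none narrower than 193 bp). What such lists can show is how much is shared, and in that setting 26437 regions were shared, 18906 High only and 18632 Negative only. Among the widest regions of the full lists the surplus was larger. There were 3646 High only regions of at least 500 bp against 1953 Negative only regions, a ratio of 1.87, and 158 against 63 of at least 1000 bp, a ratio of 2.51. The High list also had more peaks of these widths, so these ratios too carry a difference in peak number. It had 19641 against 16923 of at least 500 bp, 3517 against 2695 of 1000 to 1499 bp and 654 against 400 of 1500 bp and over.

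Measured in bp of overlap or gap, few regions lay close to the line between classes. In 27 regions of both lists the largest overlap of a High and a Negative peak was 10 bp or less, and none were joined by touching alone. Outside the line, 5 High only and 5 Negative only regions ended within 10 bp of a peak of the other list, and 62 and 66 within 100 bp. A stricter rule changed the classes more. With a reciprocal overlap of 50% there were 23969 shared, 30426 High only and 21492 Negative only regions.

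The wider a peak, the more often the other list held it too. Of High peaks narrower than 150 bp, 24.0% overlapped a Negative peak (95% interval 22.5 to 25.5%). The share was 42.6% (41.6 to 43.7%) at 300 to 399 bp, 69.0% (68.0 to 69.9%) at 500 to 699 bp and 97.4% (95.9 to 98.5%) at 1500 bp and over. Negative peaks were found in the High list more often than High peaks in the Negative list in each of the 10 width classes, but the High list is the longer target. At 300 to 399 bp the Negative share was 57.2% (56.1 to 58.4%), and at 500 to 699 bp it was 81.2% (80.3 to 82.1%). The intervals of the lists did not overlap in any class except the widest. Over all widths, 53.2% of High peaks overlapped a Negative peak and 64.0% of Negative peaks overlapped a High peak. The overlapping peaks numbered 28950 and 29117, so this difference over all widths is that of the list lengths. With 45461 peaks in each list the shares were 58.4% for High and 59.0% for Negative, near equal by construction. At 300 to 399 bp they were then 42.6% (41.6 to 43.7%) and 51.4% (50.2 to 52.6%), and at 500 to 699 bp 69.0% and 78.0% (77.1 to 78.9%). At 150 to 199 bp they were 29.9% (26.6 to 33.4%) for High and 27.6% (26.4 to 28.9%) for Negative, and the intervals overlapped. That class did not compare like widths. The reduced High list kept 732 peaks there, none narrower than 193 bp, against 5183 Negative peaks. The reduction also took away narrow High peaks as targets for Negative peaks, while the Negative list kept its own narrow peaks. It removed no High peak of 200 bp or more, so the High shares from that width up are unchanged by construction. Equal length therefore left the lists unlike as targets at every width.

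**Figure D1:**
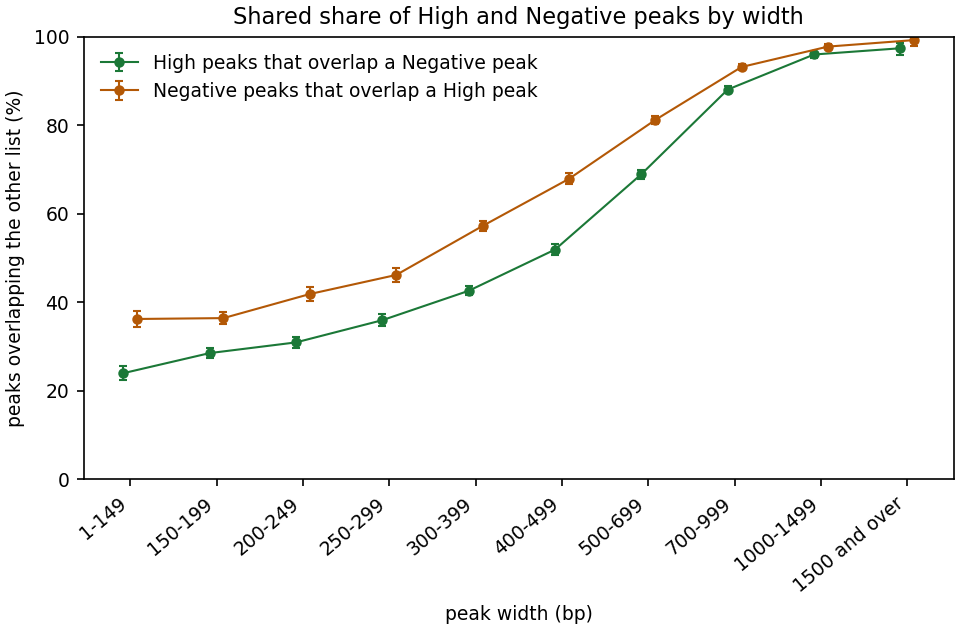
Percent of peaks that overlap a peak of the other list (vertical axis) by peak width in bp (horizontal axis), for High peaks and Negative peaks; bars are exact 95% binomial intervals. Both curves climb with width, and the Negative curve lies above the High curve, for example at 57.2% against 42.6% for peaks of 300 to 399 bp.

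Where both lists held a region, their peaks lay almost on top of each other. Of the 28725 shared regions, 28131 held 1 peak of each list. In these the centres were 37 bp apart at the median and less than 187 bp apart in 95% of regions. The overlap was under 50% of the narrower peak in 172 of them. High peaks were slightly wider, with a median of 546 bp against 512 bp, and the median log2 ratio of High to Negative width was 0.09 (quartiles -0.18 and 0.37). The High peak was the wider in 17393 regions (61.8%) and the Negative peak in 10610. A Negative peak sat inside a High peak in 12258 regions, a High peak inside a Negative peak in 6579, and the edges were staggered in 9253. The rest of the shared regions held unequal or multiple peaks: 378 had more Negative than High peaks and 209 had more High than Negative peaks.

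In shared regions, peak width went with the class of the neighbours. Between 2 High only regions there were 2926 shared regions with 1 peak of each list, and there the median widths were 572 bp in High and 480 bp in Negative, a median log2 ratio of 0.16 (quartiles -0.06 and 0.56). Between 2 Negative only regions there were 2055, with medians of 537 bp in High and 545 bp in Negative and a median log2 ratio of 0.03 (quartiles -0.32 and 0.28). The 6139 flanked by shared regions on both sides lay in between, at 0.09. The High peak was the wider in 70.2% (68.5 to 71.8%) of the first group, 62.4% (61.1 to 63.6%) of those among shared regions and 53.4% (51.2 to 55.6%) of those between Negative only regions. High peaks at least 2-fold wider than the Negative peak made up 12.8% of the first group and 5.55% of the last, and Negative peaks at least 2-fold wider made up 4.68% and 9.25%. The quartile ranges of the groups overlapped broadly. With only 22730 peaks a list, the widest, the medians were closer, at 0.14 between High only and 0.08 between Negative only regions, and with the 45461 widest High peaks they were 0.20 and 0.06. These widths were not used to class the regions, but they come from the same peak calls.

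**Figure D2:**
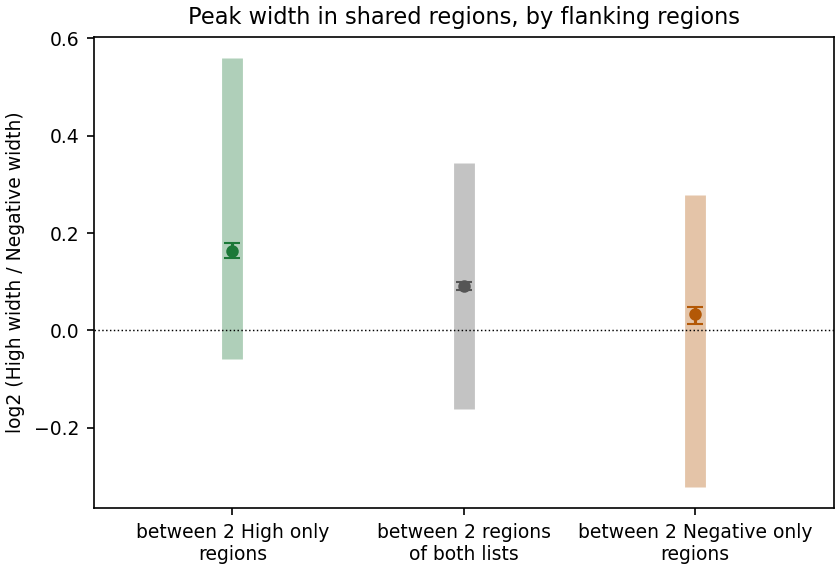
Log2 ratio of High to Negative peak width in shared regions with 1 peak of each list (vertical axis), by the class of the flanking regions (horizontal axis); points are medians with 95% order-statistic intervals, and shaded bars run from the lower to the upper quartile. The medians fall from 0.16 between High only regions to 0.03 between Negative only regions, while the quartile bars overlap.

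High only regions lay farther from the other list than Negative only regions did. The median distance from a High only region to the nearest Negative peak was 14737 bp (quartiles 5178 and 46421 bp). From a Negative only region to the nearest High peak it was 5705.5 bp (quartiles 2123 and 14085 bp). Within 1000 bp of a peak of the other list were 6.64% of High only regions (6.34 to 6.95%) and 13.0% of Negative only regions (12.5 to 13.5%). More than 100 kb away were 3301 High only regions, 13.0% (12.6 to 13.4%), and 376 Negative only regions, 2.301% (2.08 to 2.54%). The Negative list is the shorter target, but with High reduced to the same number of peaks the medians were 15580 bp and 6561 bp. Distances to the nearest shared region, a target common to both classes, had medians of 19952 bp for High only and 8472.5 bp for Negative only regions.

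**Figure D3:**
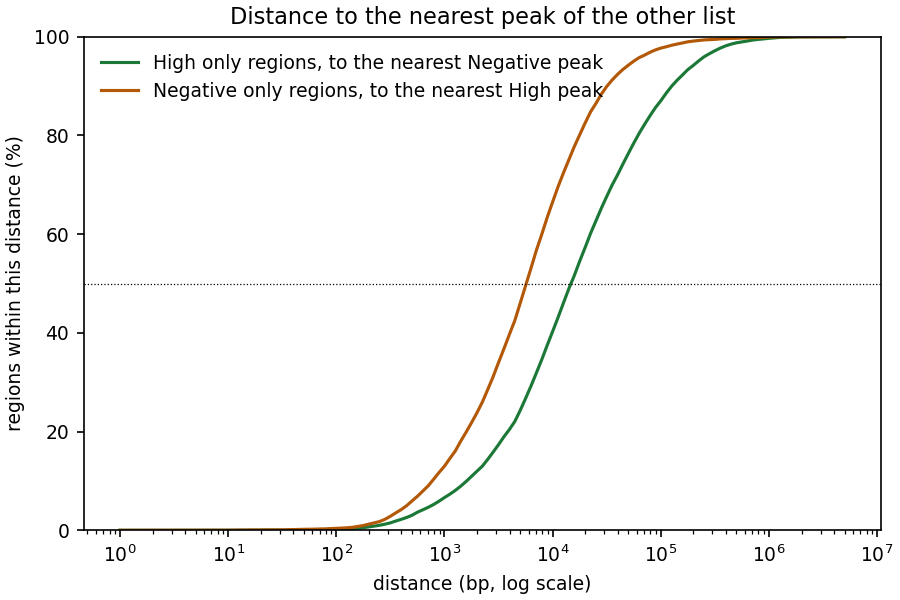
Percent of regions (vertical axis) whose nearest peak of the other list lies within a given distance in bp (horizontal axis, log scale), for High only and Negative only regions. The High only curve lies to the right, crossing 50% at 14737 bp against 5705.5 bp for Negative only regions.

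The difference in surroundings was graded. Among 1-list regions with no shared region within 50 kb, 7392 were High only and 1869 Negative only, 3.96 to 1. With 1 or 2 shared regions within 50 kb the ratio was 1.64, with 3 to 5 it was 1.09 and with 6 to 9 it was 0.92. With 10 or more, 341 were High only and 434 Negative only, a ratio of 0.79, and High only regions made up 44.0% of them (40.5 to 47.6%). High only regions thus outnumbered Negative only regions where shared open chromatin was sparse, and the order turned where it was dense. With lists of equal length the ratio was 2.57 with no shared region within 50 kb and 0.55 with at least 6, against 3.96 and 0.90 in the full lists. With only 22730 peaks a list, the widest, the ratios were 1.72 and 0.62. In all, 29.1% of High only regions and 11.4% of Negative only regions had no shared region within 50 kb. Regions of the same class were about as common near both: the median was 2 within 50 kb for each, and 18.1% of High only and 18.8% of Negative only regions had none.

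The classes were also counted in windows of 100 kb. Of 14731 windows with at least 1 region, 3315 held High only regions and nothing else, and 681 held only Negative only regions. The Spearman correlation over windows between the number of shared regions and the number of Negative only regions was 0.45 (Pearson 0.43). Between shared and High only regions it was 0.12 (Pearson 0.16), and between High only and Negative only regions 0.01 (Pearson 0.04). In 2287 windows of 1 Mb these 3 Spearman values were 0.83, 0.78 and 0.66. Windows without any region were left out, which can lower these correlations, so a low value does not show that the classes are independent. The windows share the density of their part of the chromosome, and no p is given.

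Regions of 1 class followed each other along the chromosome. The region after a High only region was again High only in 50.6% of cases, against 36.1% of all regions. After a Negative only region it was Negative only in 31.9%, against 23.2% of all regions. A Negative only region came next after a High only region in 15.7% of cases, below its 23.2% of all regions. Runs, meaning regions of the same class with none of another class between them, were longest for High. At least 5 regions in a row were seen in 984 runs of High only regions, which held 28.2% of that class, in 171 runs of Negative only regions, holding 6.25%, and in 726 runs of shared regions, holding 15.9%. Of runs of at least 10, High only had 152 and Negative only had 9. High only runs of at least 10 occurred on 19 of the 19 autosomes and Negative only runs of that length on 5. In 13 runs, 20 or more High only regions followed each other, while the longest Negative only run had 15 and the longest shared run 22.

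A class with more regions forms longer runs, and the lead of High narrowed when the lists were made equal. With 45461 peaks in each list, 21.3% of High only and 9.30% of Negative only regions were in runs of at least 5, and the longest runs had 39 and 15 regions. With the widest 22730 peaks of each, the shares were 10.7% and 6.79%, but the longest run was then of Negative only regions, 16 against 11. Regions in runs were slightly wider than those without a neighbour of their class, with medians of 290 against 270 bp for High only and 273.5 against 255 bp for Negative only.

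**Figure D4:**
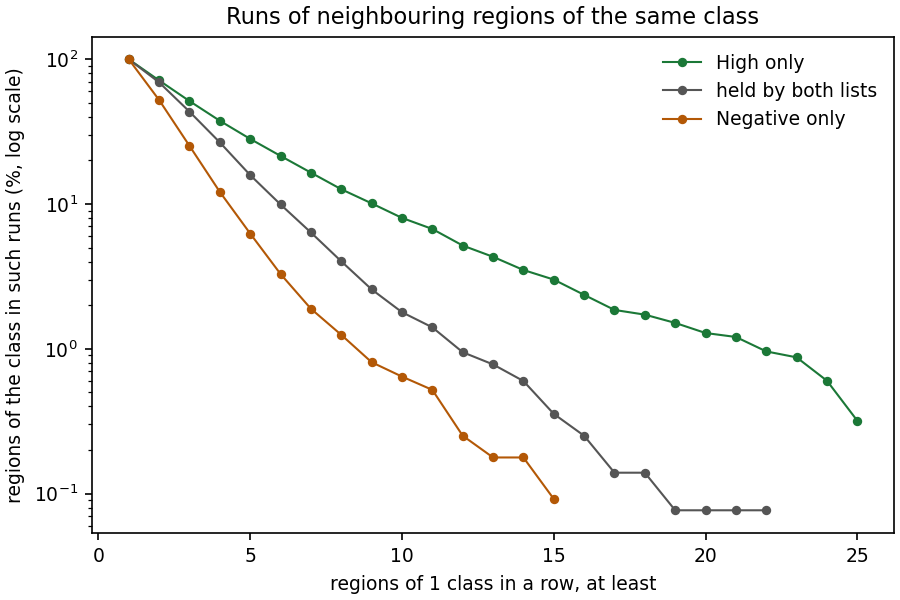
Percent of the regions of each class (vertical axis, log scale) that lie in runs of at least a given number of regions of that class in a row (horizontal axis, shown up to 25). At 5 in a row the values are 28.2% for High only, 15.9% for shared and 6.25% for Negative only regions.

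The longest run was on chromosome 12, where 50 High only regions followed each other from 117729116 to 118591639, over 863 kb. The Negative list had no peak in a stretch of 875 kb there. The regions were 107 to 755 bp wide with a median of 308.5 bp, 6 of them reached 500 bp, and neighbours lay 12.2 kb apart at the median, so the run was made of many narrow peaks spread over its length. Its widest regions were at 117859586 to 117860340 (755 bp), 117729116 to 117729810 (695 bp) and 118431630 to 118432318 (689 bp). The next run was on chromosome 11 from 118376818 to 118826703, with 31 High only regions in 450 kb, of which 8 reached 500 bp and the widest covered 1255 bp. Runs of 24 followed on chromosome 5 from 75774787 to 76567892, on chromosome 5 from 128547191 to 129487742 and on chromosome 13 from 100139091 to 100710847. The density of these runs varied. The run of 22 on chromosome 4 from 62761611 to 63066306 held 7.22 regions per 100 kb, and the run of 23 on chromosome 7 from 101883461 to 104096186 held 1.04. The 10 longest High only runs had 21 to 50 regions and lay on 8 chromosomes.

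The longest Negative only runs were shorter and some were dense. The first, with 15 regions, was on chromosome 5 from 146712111 to 147016281, over 304 kb, and its widest region covered 714 bp at 146879795 to 146880508. The second had 14 regions on chromosome 10 from 99114763 to 99464372, of which the widest covered 1221 bp. The densest of the 10 longest had 10 regions within 55.0 kb on chromosome 5 from 53381918 to 53436871, with a median width of 421.5 bp, which is 18.2 regions per 100 kb. A run of 12 on chromosome 3 from 30062467 to 30138673 held 15.7 per 100 kb. Of the 10 longest Negative only runs, 5 were on chromosome 5. A pair of these, each with 11 regions, was separated by 50.1 kb that held 1 shared region, so that from 87339772 to 87885682 the Negative list had 22 regions of its own and the High list had none.

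**Figure D5:**
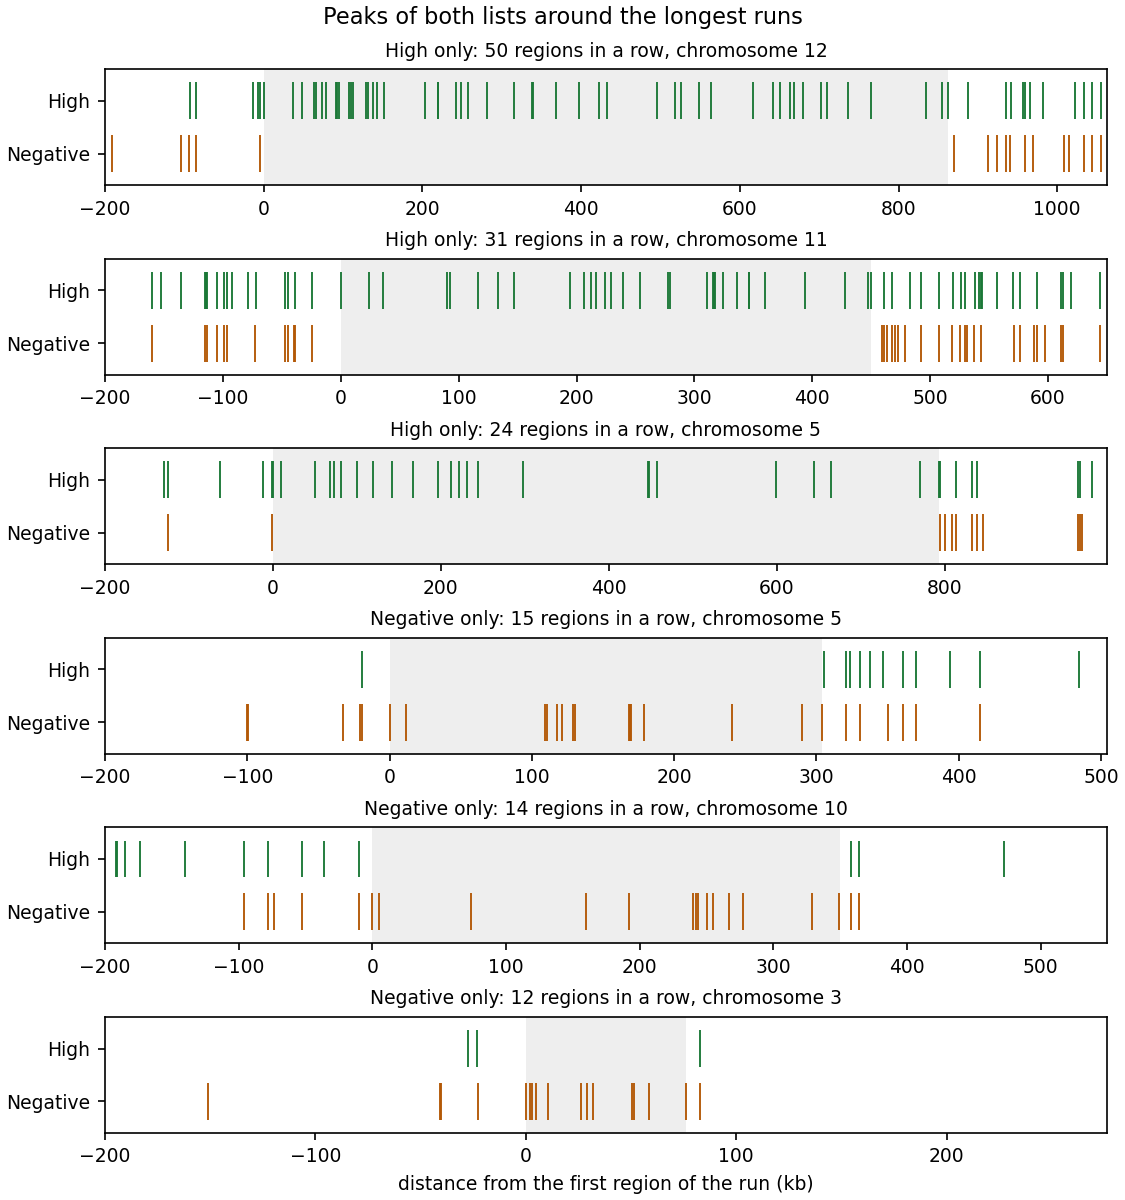
Peaks of the High and Negative lists (vertical lines, upper and lower row of each panel) around the 3 longest High only runs and the 3 longest Negative only runs, by distance in kb from the first region of the run; grey marks the run, and 200 kb are shown on each side. Inside the grey stretches peaks stand in 1 row only, while peaks in both rows are seen outside them.

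The named windows of 100 kb were chosen by their number of regions. Chromosome 4 from 137200001 to 137300000 had the most High only regions, 14 of 18, with a median width of 269 bp, beside 3 shared and 1 Negative only region. Chromosome 12 from 117800001 to 117900000 had 13 High only regions and no other, and lies within the run of 50. Chromosome 6 from 54000001 to 54100000 had 13 of 18 and chromosome 15 from 58800001 to 58900000 had 13 of 15, where the High only regions were wider, at a median of 399 bp. Chromosome 8 from 123000001 to 123100000 had 12 High only regions beside 6 shared and 6 Negative only, so both classes were dense there.

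For Negative, chromosome 14 from 20900001 to 21000000 led with 13 Negative only regions of 16, the others being shared. Chromosome 5 from 53400001 to 53500000 had 12 of 16, with a median width of 408 bp, and chromosome 19 from 32500001 to 32600000 had 12 of 17, with a median of 208 bp. Chromosome 6 from 71100001 to 71200000 had 11 Negative only regions of 17 and 5 High only, and chromosome 14 from 121800001 to 121900000 had 11 of 18. The windows with the most shared regions held 1 or 2 High only and 1 to 4 Negative only regions. On chromosome 10 from 79600001 to 79700000, 15 of 19 regions were shared, on chromosome 3 from 89000001 to 89100000 15 of 18, and on chromosome 7 from 30000001 to 30100000 15 of 20.

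Of 2287 windows of 1 Mb, 1551 held more High only and 536 more Negative only regions, which carries the difference in list length. The windows named next were picked because their difference was the largest in either direction. From 80000001 to 81000000 on chromosome 18, 38 regions were High only and 3 Negative only. The counts were 36 and 2 on chromosome 4 from 139000001 to 140000000, and 42 and 8 on chromosome 5 from 125000001 to 126000000. In the other direction, chromosome 19 from 32000001 to 33000000 had 23 High only and 50 Negative only regions, chromosome 8 from 107000001 to 108000000 had 9 and 35, and chromosome 4 from 104000001 to 105000000 had 13 and 38. Within 1 chromosome, then, windows leaned either way: chromosome 4 holds 1 of the 3 most High-rich and 1 of the 3 most Negative-rich windows.

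The widest regions of a single list were several times the median of their class. The widest High only region covered 2097 bp on chromosome 6 from 39821407 to 39823503, and the nearest Negative peak was 60.3 kb away. The next were 2084 bp on chromosome 10 from 94406256 to 94408339, 2038 bp on chromosome 11 from 114711762 to 114713799, 1948 bp on chromosome 2 from 121119873 to 121121820 and 1742 bp on chromosome 11 from 80965490 to 80967231, the last with no Negative peak within 281 kb. The other 3 had a Negative peak at 45.9, 15.1 and 4.27 kb, in the order given. The widest Negative only regions covered 1642 bp on chromosome 19 from 43867170 to 43868811, 1607 bp on chromosome 6 from 129040661 to 129042267 and 1543 bp on chromosome 11 from 94621354 to 94622896, and the nearest High peaks were 5.85, 9.29 and 1.31 kb away. The next were 1433 bp on chromosome 3 from 129316690 to 129318122 and 1354 bp on chromosome 8 from 129502688 to 129504041, the latter 6.31 kb from a High peak. The widest shared region, on chromosome 17 from 39980066 to 39985686, covered 5621 bp and joined 1 High peak with 2 Negative peaks.

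On every autosome High only regions outnumbered Negative only regions, 19 of 19. As over the whole genome, this surplus restates a difference in the number of peaks, and the lists were not made equal by chromosome. The ratio was highest on chromosome 15, at 1.89, where Negative only regions made up 19.97% of the regions (95% interval 18.5 to 21.5%). It was lowest among autosomes on chromosome 3, at 1.27, where they made up 26.2% (24.8 to 27.7%), followed by chromosome 19 at 1.33. The share of High only regions ran from 32.8% on chromosomes 19 and 7 to 39.0% on chromosome 1, and that of shared regions from 37.0% on chromosome 14 to 45.6% on chromosome 7. On the X chromosome there were 447 High only, 350 Negative only and 517 shared regions. The Y chromosome held 21 regions, of which 10 were shared, 4 High only and 7 Negative only, too few to set its shares apart from those of the autosomes.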

How the data were processed

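Per the submitters' processing notes, the tools listed were MACS2 2.1.2, deepTools 2.5.2, Picard 2.10.3, Bowtie2 2.3.4 and Trim Galore 0.4.3, with mm9 as the build and no order or role stated. Their settings, any Tn5 offset shift and the rule that combined 3 libraries into a consensus list are not given in the sources used here. Each list deposited by the authors has chromosome, start, end and peak name, and no score or read count. The High and Negative lists were used. In the High list 4 peaks and in the Negative list 1 peak had a start equal to the end, so positions were counted from 1 with the end included. Peaks within a list lay at least 130 bp apart.

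Named regions were the 5 windows of 100 kb with the most regions of each single-list class, the 3 with the most shared regions, the 3 windows of 1 Mb with the largest difference in each direction, and the 5 widest regions of a class. Runs, surroundings and flanks were chosen after seeing the data. The members, lists and rules were all chosen with earlier results of these data known. The gene, promoter and motif parts of the plan were left out, since neither sequence nor annotation of mm9 was used here. Merging, overlap and distance functions were tested on simulated data, where 100% of 22855 regions received the right class. Software was scipy 1.17.1, pandas 2.3.3, numpy 2.4.6 and matplotlib 3.10.9 under Python 3.11.15.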

Additional observations from a re-analysis of the deposited data

How the results depend on the processing

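No paired analysis was possible because the lists combine 3 libraries into 1 set of peaks, so no library could be left out either. Of 91 values under alternatives, 59 stayed within 1.5-fold (counts and median distances) or inside their interval, and 32 moved. The 1.5-fold limit is wide: Negative only regions counted as unmoved at 21492 with a reciprocal overlap of 50%, against 16344 as reported. None moved with autosomes only or with starts counted from 0, settings that kept 53414 and 54391 of the 54395 High peaks. Every value except the longest run of Negative only regions moved when only the widest 22730 peaks of each list were used. With the widest 22730 peaks of each list there were 14964 shared, 7746 High only and 7685 Negative only regions, fewer by construction, a ratio of 1.01 (near 1 by construction, as the lists are equally long), a Jaccard index over bases of 0.490 (0.441 as reported) and a log2 width ratio of 0.10. With the widest 45461 High peaks the ratio was 1.01, again by construction, the index 0.445 and the log2 width ratio 0.11. A reciprocal overlap of 50% gave a ratio of 1.42 and an index of 0.390, merging of peaks up to 500 bp apart a ratio of 1.61, and peaks of at least 200 bp an index of 0.448. The cause of these last shifts was not tested. No direction reversed against 1 or 0. The settings applied to distances, runs, surroundings and flanking widths were chosen after seeing the data; with the widest 22730 peaks the median distances were 25118 and 13451 bp. With the 100 kb grid shifted by 50 kb the densest windows held 16 High only and 17 Negative only regions, against 14 and 13. Width is the only size the lists give, and its relation to signal strength was not tested. Without depth a region that was closed and one that was missed cannot be told apart.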

Other observations

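Some regions of a single list were megabases from any peak of the other list, whatever lay near them in their own. A High only region of 112 bp on chromosome 5 from 58108580 to 58108691 was 3637 kb from the nearest Negative peak, and a Negative only region of 210 bp on chromosome 15 from 21321219 to 21321428 was 3911 kb from the nearest High peak. Both are narrower than the median of their class.

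In a few shared regions the peaks of the lists differed widely in width. On chromosome 9, a High peak of 2262 bp from 95306039 to 95308300 met a Negative peak of 101 bp, and on chromosome 19 a High peak of 1457 bp from 27291295 to 27292751 met a Negative peak of 125 bp. In the other direction, a Negative peak of 1367 bp on chromosome 3 from 89097091 to 89098457 met a High peak of 156 bp, and a Negative peak of 924 bp on chromosome 6 from 86595636 to 86596559 met a High peak of 118 bp. These were the most unequal pairs among peaks of at least 100 bp, and the classes count them as shared.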
